A study of Homo sapiens with 9 samples.

Results

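The nuclear genes for subunits of the respiratory complexes I, III, IV and V were followed in HeyA8 cells, an established human ovarian cancer line that the labels also spell Hey8A. The members were all symbols of the platform's probe annotation that begin with NDUFA, NDUFB, NDUFC, NDUFS, NDUFV, UQCR, ATP5 or COX4 to COX8. Left out were 8 NDUFAF assembly factors, 2 pseudogenes and 1 antisense RNA. This gave 74 of the 18354 genes with a named probe, 33 of complex I, 7 of complex III, 16 of complex IV and 18 of complex V, each represented by the probe with the highest mean. Messenger RNA was measured on Illumina bead arrays in 3 groups of 3 arrays. Deprived coculture was HeyA8 with cancer-associated fibroblasts on inserts and 24 h in medium without glutamine, deprived monoculture was HeyA8 alone for 24 h in medium without glutamine, and the fed group was HeyA8 alone for 24 h in complete medium. All 3 groups were grown in RPMI medium, with it renewed at the same step, and the fibroblasts had been added 3 days before it. Fed coculture is not analysed here, so a difference between coculture and monoculture is known only without glutamine. Whether the 3 arrays of a group came from separate experiments is not stated, and p-values therefore measure the spread between these arrays only.

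Complex I takes electrons from NADH and hands them to ubiquinone, complex III passes them on to cytochrome c, and complex IV gives them to oxygen. The 3 complexes pump protons out of the matrix as they do so, and complex V, the ATP synthase, lets the protons back in and makes ATP. Glutamine is one of the fuels whose carbon enters the tricarboxylic acid cycle, which supplies the NADH. Most subunits are encoded in the nucleus and are assembled around a core of mitochondrially encoded subunits, which were not analysed here.

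Of the 74 members, 69 passed the filter on dim probes and were tested. The other 5 were COX4I2, COX6A2, COX7A1, COX7B2 and COX8C, tissue- or condition-specific forms of complex IV subunits. Their group means lay between 7.33 and 7.41 in all groups, below the upper edge of the floor of the arrays at 7.48 (all levels are log2-like values as deposited). Their general counterparts COX4I1, COX6A1, COX7A2, COX7B and COX8A were well above the floor, with group means of 11.62 or more. The median SD of the members within a group was 0.07 and the highest 0.32, in NDUFA11 in complete medium. The deposited arrays had nearly equal medians, from 7.4706 to 7.4731, so every difference is relative to the median of all probes, and less RNA of a gene per cell cannot be told apart from fewer cells that express it. Pseudogenes named after 44 of the members are annotated, 181 in all, and UQCRHL is a near copy of UQCRH. Whether the probes of such genes also detect these copies was not tested. The keratins KRT8 and KRT18, KRT7 and PAX8, which mark epithelial ovarian carcinoma, were above the floor in all groups, while the epithelial cadherin CDH1 and the serum marker MUC16 were at it. Of 9 such markers 7 were tested, and all 7 fell in deprived monoculture against complete medium, with a median log2 difference of -0.69. Of all tested genes 24.3% fell. Among the 7, KRT19, WT1 and EPCAM were near the floor, with group means from 7.37 to 7.80. Of the 3 mesenchymal markers tested, VIM (14.08 to 14.16) and CDH2 (11.70 to 11.84) were not called in that comparison. FN1, near the floor, fell by 0.10.

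The first comparison asked how 24 h without glutamine changed the respiratory subunits of cells growing alone. Relative to complete medium, 35 of the 69 tested members fell (50.7%) and 7 rose (10.1%) in deprived monoculture (limma, adjusted p below 0.05 over 10862 genes), against 24.3% of all tested genes lower and 30.0% higher. The median log2 difference of the members was -0.14, and that of all genes 0.015. The changes were small. Those that fell did so by 1.09-fold to 1.64-fold with a median of 1.25-fold, and 5 of them reached 1.5-fold. Those that rose did so by 1.12-fold to 1.34-fold. On each of the 3 deprived arrays the median member lay below its complete-medium mean, by -0.124, -0.142 and -0.153, while the complete-medium arrays stood at -0.027, -0.019 and 0.034. Every array without glutamine thus stood below every array with it.

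**Figure D1:**
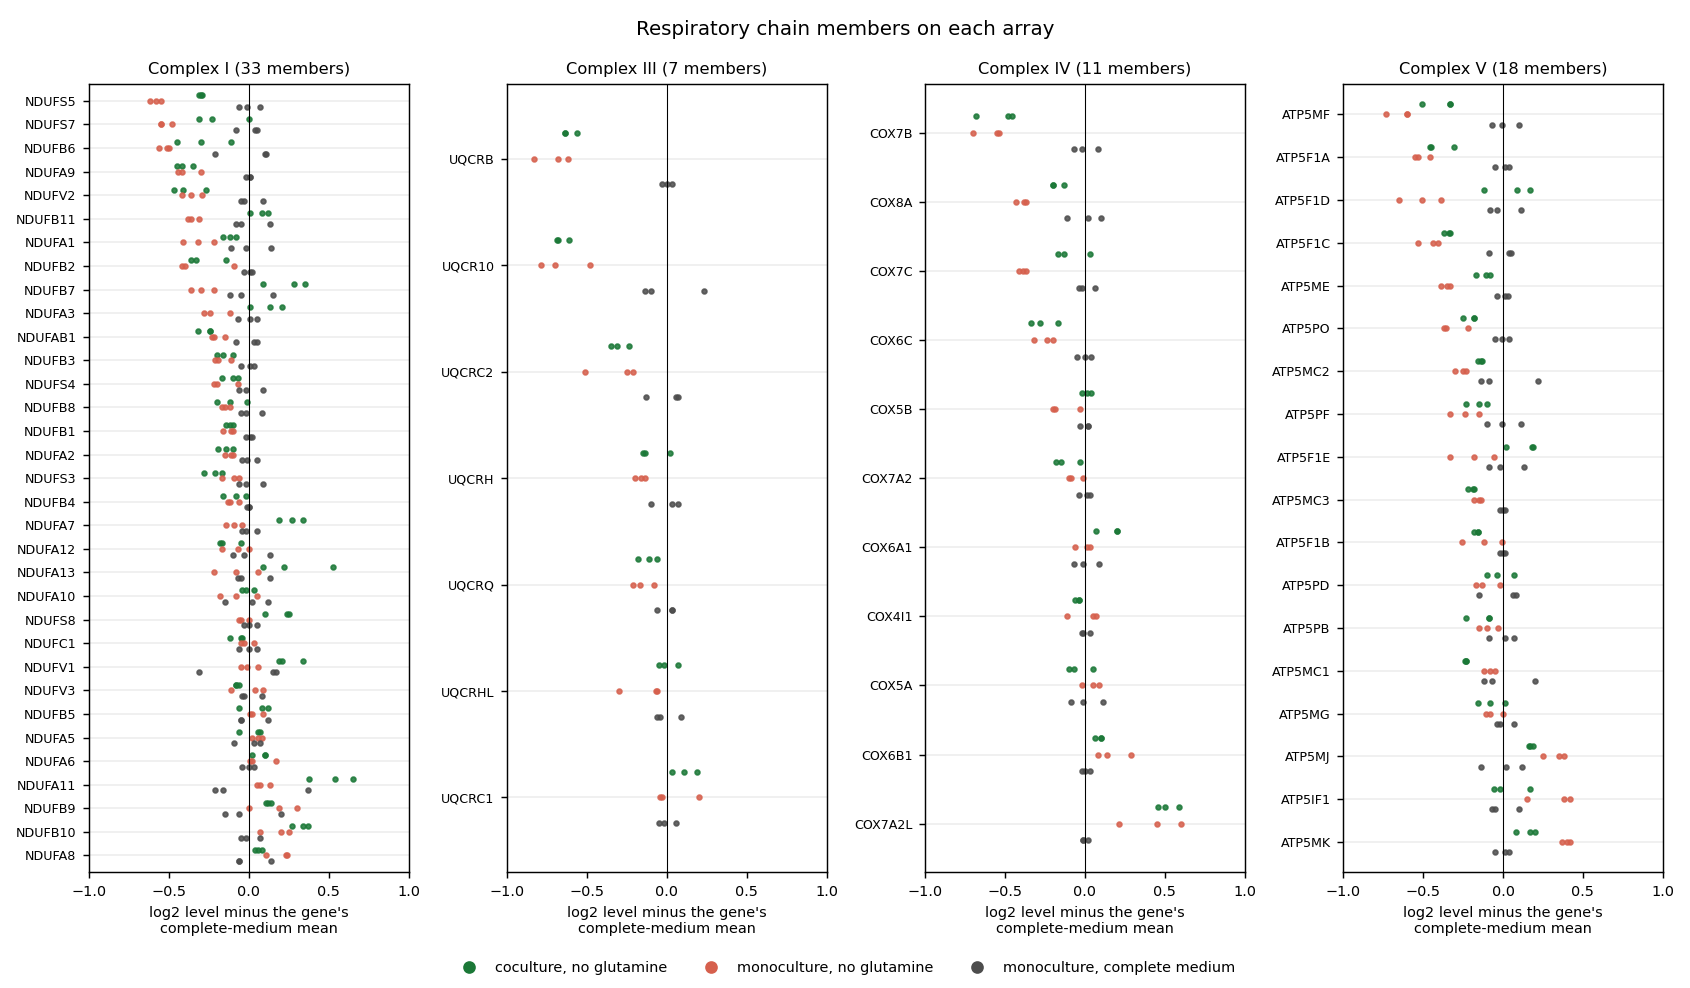
Level of each of the 69 tested members on each array, as the log2 level minus the gene's mean in complete medium, by complex. Each row is a gene, ordered by its difference between deprived monoculture and complete medium, and each point an array (green, deprived coculture; red, deprived monoculture; grey, complete medium). UQCRB, at the top of complex III, has all points without glutamine more than 0.5 below its complete-medium mean, while ATP5MK and COX7A2L at the bottom lie above theirs.

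The 5 promoter windows below belong to members the comparison turned on. They are those of the gene with the largest called fall in each complex among genes with a single promoter window in the RefSeq table (GRCh38.p14), and of ATP5MK, the largest rise chosen in the same way. Each runs from 250 bases before to 50 bases after the start of the gene. Capitals mark the motifs that were searched on both strands: the NRF1 core (GCGC, any base, then TGCGC), the GABPA core CCGGAAG, the YY1 core AAGATGGC and the SP1 core GGGCGG.
NDUFS7, chr19:1383657-1383956, plus strand: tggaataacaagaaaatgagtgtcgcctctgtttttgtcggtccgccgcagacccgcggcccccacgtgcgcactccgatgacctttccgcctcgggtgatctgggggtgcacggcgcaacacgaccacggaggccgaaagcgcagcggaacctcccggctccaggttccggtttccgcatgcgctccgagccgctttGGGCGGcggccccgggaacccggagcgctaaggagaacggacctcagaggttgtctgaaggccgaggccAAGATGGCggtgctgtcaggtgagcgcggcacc
UQCR10, chr22:29767119-29767418, plus strand: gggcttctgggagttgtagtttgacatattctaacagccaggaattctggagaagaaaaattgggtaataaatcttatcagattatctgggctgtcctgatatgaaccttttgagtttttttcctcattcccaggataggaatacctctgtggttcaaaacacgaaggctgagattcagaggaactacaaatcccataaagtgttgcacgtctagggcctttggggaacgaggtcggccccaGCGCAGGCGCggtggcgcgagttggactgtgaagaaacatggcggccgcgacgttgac
COX7B, chrX:77899218-77899517, plus strand: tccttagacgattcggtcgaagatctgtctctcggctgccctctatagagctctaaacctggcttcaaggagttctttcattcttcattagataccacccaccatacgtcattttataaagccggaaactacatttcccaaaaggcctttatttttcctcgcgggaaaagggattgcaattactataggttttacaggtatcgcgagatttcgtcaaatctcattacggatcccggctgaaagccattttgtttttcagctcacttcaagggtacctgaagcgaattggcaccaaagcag
ATP5F1C, chr10:7787927-7788226, plus strand: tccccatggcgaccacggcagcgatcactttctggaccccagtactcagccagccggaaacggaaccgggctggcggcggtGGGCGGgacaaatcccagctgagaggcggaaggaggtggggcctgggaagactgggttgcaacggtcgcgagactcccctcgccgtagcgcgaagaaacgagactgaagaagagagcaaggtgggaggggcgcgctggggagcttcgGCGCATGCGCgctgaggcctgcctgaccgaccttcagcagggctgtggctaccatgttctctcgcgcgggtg
ATP5MK, chr10:103396426-103396725, minus strand: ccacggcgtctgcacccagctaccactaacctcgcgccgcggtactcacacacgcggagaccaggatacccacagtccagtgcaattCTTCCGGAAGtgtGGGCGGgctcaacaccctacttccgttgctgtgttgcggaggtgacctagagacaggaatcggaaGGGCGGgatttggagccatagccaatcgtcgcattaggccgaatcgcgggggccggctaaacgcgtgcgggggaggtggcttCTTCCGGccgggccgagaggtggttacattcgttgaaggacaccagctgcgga
NDUFS7 carries a YY1 core just after its start and an SP1 core before it, UQCR10 an NRF1 core across its start, and ATP5F1C an NRF1 and an SP1 core. ATP5MK, which rose, carries 3 GABPA cores, of which a pair overlap, and 2 SP1 cores, while COX7B, which fell, holds none of the 4 motifs.

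Promoter windows were found for 62 of the 74 members. The NRF1 core was present in 13 of them (21.0%, against 7.0% of the 27305 genes in the table), the GABPA core in 17 (27.4% against 12.2%), the YY1 core in 11 (17.7% against 3.5%) and the SP1 core in 38 (61.3% against 48.3%). At least 1 of the first 3 was present in 35 members (56.5%), against 5464 of the 27305 genes. NRF1, the GABP factors and YY1 are transcription factors known for activating nuclear genes of the respiratory chain. Members that fell without glutamine carried the GABPA core in 9 of 29 windows, those that rose in 2 of 7 and those not called in 6 of 23. For the NRF1 core the counts were 6 of 29, 2 of 7 and 4 of 23, and for the YY1 core 7 of 29, 0 of 7 and 4 of 23. A match says only that the letters are present in the window.

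In complex I, 15 of 33 members fell in deprived monoculture and 2 rose, with a median log2 difference of -0.11. By part of the enzyme, 11 of 20 tested subunits of the membrane arm fell and 2 rose, 2 of 5 of the Q module, where ubiquinone is reduced, fell, and 2 of 8 of the N module, where NADH is oxidised, fell. NDUFS5, an accessory subunit at the intermembrane side of the membrane arm, stood at 12.47, 12.54 and 12.51 on the deprived monoculture arrays, against 13.08, 13.16 and 13.03 in complete medium. All deprived values lay below all fed ones, and the log2 difference was -0.58 (SE 0.055, 1.5-fold lower, adjusted p = 1.85e-08). NDUFS7, the Q-module subunit that holds the last iron-sulfur cluster before ubiquinone, had 9.95, 9.88 and 9.88 in deprived monoculture and 10.35, 10.48 and 10.47 in complete medium. Here too the groups were apart (-0.53, SE 0.075, adjusted p = 4.73e-06). The membrane-arm subunit NDUFB6 fell by 0.52 on the log2 scale, and NDUFA9, a Q-module subunit close to the ubiquinone site, by 0.38. In the N module NDUFV2, an iron-sulfur subunit, fell by 0.36. Its neighbour NDUFV1, which binds the flavin that takes the electrons from NADH, had means of 10.37 in both groups, with a 95% interval of the difference from -0.20 to 0.20. The fed mean included 1 low array, with 10.06, 10.54 and 10.52 in complete medium, and without that replicate 1 the difference was -0.16 and not called. NDUFAB1, the mitochondrial acyl carrier protein, which also serves fatty acid synthesis, fell by 0.20 (adjusted p = 0.00695). The 2 members that rose were NDUFA8 (0.19, adjusted p = 0.0209) and NDUFB10 (0.18, adjusted p = 0.027), both membrane-arm subunits. Neither call held when complete-medium replicate 2 was left out (0.16, adjusted p = 0.0932, and 0.15, adjusted p = 0.0949). Both calls were also lost without deprived monoculture replicate 1 (adjusted p = 0.0673 and 0.0731). The NDUFA8 call was lost without complete-medium replicate 1 or deprived monoculture replicate 3 (adjusted p = 0.0908 and 0.0599). The NDUFB10 call was lost without complete-medium replicate 3 or deprived monoculture replicate 2 (adjusted p = 0.0694 and 0.123). With complete-medium replicate 1 or any of the deprived monoculture arrays left out, 1 rise was called in complex I. Without deprived monoculture replicate 1 that rise was NDUFB9. The NDUFA8 groups overlapped. NDUFB9, among the brightest complex I members, was not called (0.16, adjusted p = 0.0965), although it was without complete-medium replicate 3 (0.27, adjusted p = 0.00558) or deprived monoculture replicate 1 (0.25, adjusted p = 0.019).

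In complex III, 5 of 7 members fell without glutamine in limma's test (71.4%, against 24.3% of all genes). Of the 7, 0 rose, none with a 95% interval above 0, and the median log2 difference was -0.17. UQCRB, a small subunit near the ubiquinone pocket, had 10.99, 10.93 and 10.78 in deprived monoculture, against 11.64, 11.61 and 11.58 in complete medium. Taking the brightest probe of each gene, this was the largest fall among the 69 members (-0.71, SE 0.065, 1.64-fold lower, adjusted p = 1.04e-08). UQCR10, another small subunit of the membrane part, had 9.05, 8.74 and 8.83 in deprived monoculture and 9.39, 9.43 and 9.76 in complete medium. Its groups were apart as well (-0.65, SE 0.089, adjusted p = 2.89e-06). For both genes a dimmer probe was not called, with log2 differences of 0.00 (SE 0.052) for UQCRB and 0.12 (SE 0.061) for UQCR10 at probe means of 7.94 and 7.96. UQCRC2, a core protein of the matrix side, fell by 0.32, while its partner UQCRC1 averaged 10.65 ± 0.13 in deprived monoculture and 10.61 ± 0.06 in complete medium (SD, n = 3 each; adjusted p = 0.615). UQCRH, the hinge protein that helps cytochrome c dock, fell by 0.17, a call lost without complete-medium replicate 2 (-0.13, adjusted p = 0.107), complete-medium replicate 3 (-0.15, adjusted p = 0.0627) or deprived monoculture replicate 1 (-0.15, adjusted p = 0.0655). Its near copy UQCRHL was not called (-0.14, adjusted p = 0.0714), although it was without deprived monoculture replicate 2 or 3 (-0.18 each, adjusted p = 0.041 and 0.0431). Without complete-medium replicate 2 or 3, 3 members of complex III were called lower.

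In complex IV, 5 of 11 tested members fell (45.5%) and 2 rose (18.2%), against 24.3% and 30.0% of all genes. The median log2 difference was -0.06, which was 0.02 after quantile normalization. The subunits named here are small proteins that surround the mitochondrially encoded catalytic core. COX7B lay between 11.85 and 12.01 on the 3 deprived monoculture arrays and had 12.48, 12.53 and 12.63 in complete medium, without overlap (-0.59, SE 0.070, 1.5-fold lower, adjusted p = 4.42e-07). COX8A fell by 0.40, COX7C by 0.39 and COX6C by 0.25. COX4I1, the largest of the nuclear subunits and the one that binds ATP, had 13.13, 13.29 and 13.31 in deprived monoculture and 13.27, 13.23 and 13.22 in complete medium. These values overlapped, and the 95% interval of the difference ran from -0.11 to 0.12. COX7A2L, known for joining complexes III and IV into supercomplexes, went the other way. It had 11.51, 11.90 and 11.75 in deprived monoculture, all above the 11.29, 11.29 and 11.32 in complete medium (0.42, SE 0.078, 1.34-fold higher, adjusted p = 0.000111). COX6B1, on the intermembrane side of the enzyme, rose by 0.17 (adjusted p = 0.0211). That call was lost without deprived monoculture replicate 2 (0.11, adjusted p = 0.154), which left 1 rise in complex IV, and without complete-medium replicate 3 (0.15, adjusted p = 0.0591).

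In complex V, 10 of 18 members fell (55.6%) and 3 rose (16.7%), against 24.3% and 30.0% of all genes. The median log2 difference was -0.18. In the F1 head and central stalk 4 of 5 subunits fell, with a median of -0.46. ATP5F1A, the alpha subunit, had 12.24, 12.26 and 12.33 in deprived monoculture and 12.83, 12.80 and 12.74 in complete medium. The fall of 0.52 on the log2 scale (SE 0.060, adjusted p = 3.47e-07) exceeded the spread of both groups, and a second probe gave -0.49. ATP5F1C, the gamma subunit that turns inside the head, fell by 0.46, and ATP5F1D, the delta subunit beside it, by 0.51 (SE 0.082). A dimmer probe of ATP5F1D was called in the opposite direction (0.20, SE 0.064, adjusted p = 0.0127), the only member of 17 with 2 or more tested probes for which this was so. ATP5F1E, the epsilon subunit, fell by 0.20 (adjusted p = 0.0346), with overlapping groups, a call lost without deprived monoculture replicate 3 (-0.13, adjusted p = 0.184) or 2 (-0.20, adjusted p = 0.0649) and without complete-medium replicate 1 (-0.21, adjusted p = 0.0519) or 3 (-0.14, adjusted p = 0.175). The catalytic beta subunit ATP5F1B had 13.98, 13.84 and 14.09 in deprived monoculture and 14.11, 14.08 and 14.10 in complete medium. Its groups overlapped and it was not called (-0.13, adjusted p = 0.0584), although it was without deprived monoculture replicate 3 (-0.19, adjusted p = 0.0102).

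Around the head, 2 of 3 c-ring genes fell, ATP5MC2 by 0.26 and ATP5MC3, which was near the floor, by 0.16, and 2 of 4 genes of the peripheral stalk, ATP5PO by 0.31 and ATP5PF by 0.24. The small subunits of the membrane part divided. ATP5MF, the f subunit, had 10.94, 11.07 and 11.07 in deprived monoculture and 11.60, 11.66 and 11.77 in complete medium (-0.65, SE 0.069, 1.57-fold lower, adjusted p = 1.09e-07), and ATP5ME, the e subunit, fell by 0.36. Their dimmer tested probes fell further, by 0.76 for ATP5MF and 0.82 for ATP5ME. ATP5MK, also called DAPIT, a subunit that helps ATP synthase dimers hold together, had 9.73, 9.78 and 9.76 in deprived monoculture, all above the 9.37, 9.31 and 9.40 in complete medium (0.40, SE 0.061, 1.32-fold higher, adjusted p = 1.23e-05). ATP5MJ, another small subunit at that place, rose by 0.32. ATP5MG, the g subunit, averaged 12.98 ± 0.06 in deprived monoculture and 13.04 ± 0.06 in complete medium (SD, n = 3 each; adjusted p = 0.407), while its dimmer probe was called higher (0.27, SE 0.068, adjusted p = 0.00209). ATP5IF1, the inhibitor that stops the enzyme from running backwards and burning ATP, had 9.66, 9.39 and 9.62 in deprived monoculture and 9.34, 9.17 and 9.19 in complete medium. All deprived values were the higher (0.32, SE 0.079, 1.25-fold, adjusted p = 0.00164), while a dimmer probe with a mean of 7.73 was not called (0.10, adjusted p = 0.121).

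**Figure D2:**
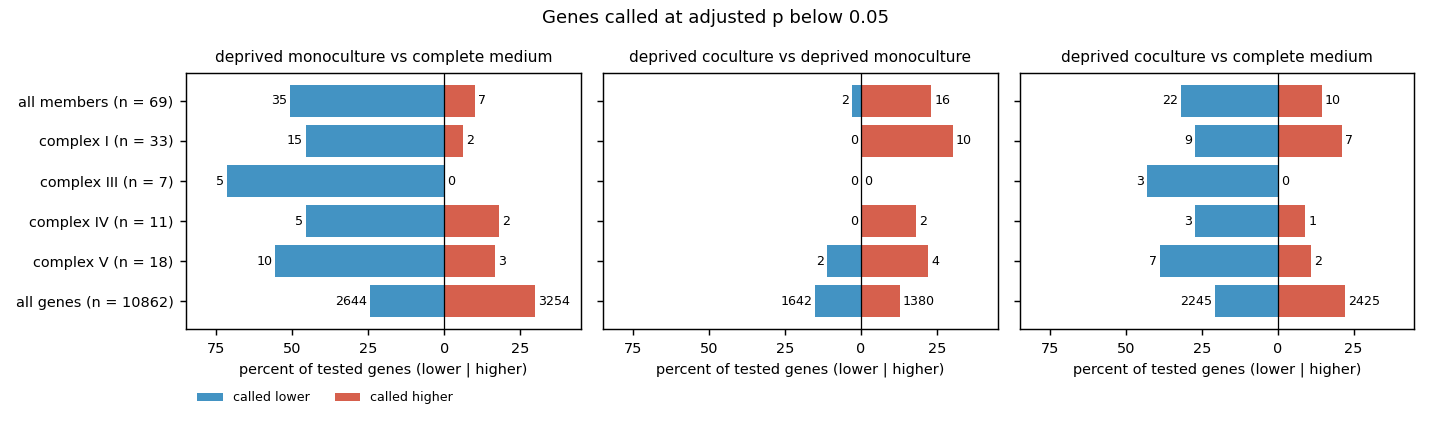
Percentage of tested genes called lower (blue, left of 0) and higher (red, right of 0) in each comparison, for all members, each complex and all genes, with the number called beside each bar. In deprived monoculture against complete medium the members' bar reaches 50.7% on the lower side and 10.1% on the higher side, while all genes reach 24.3% and 30.0%.

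The second comparison asked how the same subunits differed when fibroblasts were present without glutamine. The comparison uses the deprived monoculture arrays of the first one as its baseline, so the differences of a gene in both are not independent. In deprived coculture 16 of 69 members were higher than in deprived monoculture (23.2%) and 2 were lower (2.9%), against 12.7% of all genes higher and 15.1% lower. The median log2 difference was 0.05 over the members and -0.01 over all genes. The higher members differed by 1.15-fold to 1.48-fold. Of these, 10 were among 33 of complex I (30.3%), 2 among 11 of complex IV (18.2%) and 4 among 18 of complex V (22.2%). Complex III had 0 by this test, and of its 7 members only UQCRHL had a 95% interval above 0 (0.01 to 0.28, adjusted p = 0.115). Of 11 fibroblast markers with a probe, 8 were at the floor in all groups, COL1A2, COL3A1 and DCN among them. With levels taken as log2, the sum over the 11 was 3889 to 4024 in deprived coculture, 4926 to 5353 in deprived monoculture and 2929 to 2958 in complete medium. The brightest of them was ACTA2, smooth muscle actin, at 11.13 ± 0.05 in deprived coculture, 11.73 ± 0.09 in deprived monoculture and 10.19 ± 0.03 in complete medium (SD, n = 3 each). FAP, fibroblast activation protein, had 7.65 ± 0.02 in deprived coculture, 7.41 ± 0.05 in deprived monoculture and 7.82 ± 0.13 in complete medium (SD, n = 3 each), and was called higher in coculture (0.24, adjusted p = 0.00185) and lower in deprived monoculture than in complete medium (-0.41). COL1A1, the last of the 3 tested, was not called (0.08, adjusted p = 0.344). Without ACTA2 the sums were 1720 to 1756 in deprived coculture, 1699 to 1711 in deprived monoculture and 1759 to 1786 in complete medium. These 10 genes, FAP and COL1A1 included, were at or near the floor in all groups. Their sums are therefore mostly the floor signal of the arrays and say little about fibroblast RNA. Of the 7 epithelial markers tested, all had differences above 0 in coculture and 3 were called higher, KRT7 (0.78), PAX8 (0.51) and KRT8 (0.49). The part of these markers, or of other cells, in the members' difference was not tested.

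Within complex I, 7 of 20 membrane-arm subunits (35.0%) and 2 of 5 of the Q module (40.0%) were higher in coculture. In the N module 1 of 8 was higher (12.5%), near the 12.7% of all genes. By limma's test 0 subunits of complex I were lower, the nearest being NDUFA8 (-0.14, adjusted p = 0.145). NDUFB7, at the intermembrane side of the membrane arm, had 10.66, 10.85 and 10.92 in deprived coculture and 10.35, 10.27 and 10.21 in deprived monoculture (0.53, SE 0.079, 1.45-fold higher, adjusted p = 3.32e-05). Complete-medium arrays lay between and overlapped the coculture arrays, at 10.52, 10.45 and 10.72. NDUFA11, a membrane-arm subunit near the contact with complex III in supercomplexes, had 11.29, 11.45 and 11.56 in deprived coculture and 10.96, 11.04 and 10.98 in deprived monoculture (0.44, SE 0.11, adjusted p = 0.00426). It had 10.70, 10.75 and 11.28 in complete medium, where the third array stood far above the other two. Without that array its level in deprived monoculture was called above complete medium (0.26, adjusted p = 0.00747). NDUFB11, a membrane-arm subunit encoded on the X chromosome, was 0.42 higher (SE 0.067, adjusted p = 7.6e-05), and NDUFA7, of the N module, and NDUFA13, of the membrane arm, were each 0.36 higher. NDUFS7 was 0.35 higher (adjusted p = 0.00159), with 10.20, 10.12 and 10.43 in deprived coculture, all above the deprived monoculture arrays. NDUFS5 was 0.28 higher (SE 0.055), with 12.78, 12.79 and 12.80 in deprived coculture, which lay between both monocultures and overlapped neither. NDUFS8, the other Q-module subunit called, carries iron-sulfur clusters and was 0.23 higher.

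The complex III genes with the largest falls showed no detected difference. UQCRB had 10.97, 10.97 and 11.05 in deprived coculture, a log2 difference of 0.10 from deprived monoculture with a 95% interval from -0.04 to 0.23. UQCR10 had 8.84, 8.85 and 8.92 (0.00, interval from -0.19 to 0.18). In complex IV, COX7C was 0.30 higher, with 13.90, 14.06 and 13.86 in deprived coculture and 13.62, 13.64 and 13.66 in deprived monoculture (SE 0.057, adjusted p = 0.000434), and COX8A was 0.22 higher. The COX8A call was lost without coculture replicate 3 (0.19, adjusted p = 0.0548), which left 1 member of complex IV. COX7B did not differ detectably (0.05, interval from -0.09 to 0.20). COX7A2L had 11.80, 11.76 and 11.89 in deprived coculture, within the range of deprived monoculture (0.10, adjusted p = 0.405).

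In complex V the F1 subunits ATP5F1D and ATP5F1E were higher in coculture. ATP5F1D had 10.82, 11.03 and 11.11 in deprived coculture and 10.55, 10.29 and 10.43 in deprived monoculture (0.56, SE 0.082, 1.48-fold higher, adjusted p = 2.8e-05), the largest difference among the members, and its dimmer probe was not called (0.10, adjusted p = 0.297). ATP5F1E was 0.32 higher (SE 0.076, adjusted p = 0.00317). ATP5F1A and ATP5F1C were not called (0.11 each, adjusted p = 0.188 and 0.182). ATP5MF was 0.25 higher (adjusted p = 0.00957), a call lost without coculture replicate 2 (0.22, adjusted p = 0.053) or deprived monoculture replicate 1 (0.21, adjusted p = 0.0508), and ATP5ME 0.23 higher. The 2 members that were lower were ATP5IF1 and ATP5MK. ATP5IF1 had 9.18, 9.41 and 9.22 in deprived coculture, overlapping deprived monoculture by 1 array (-0.29, SE 0.079, adjusted p = 0.00891), and its dimmer probe was not called (-0.08, adjusted p = 0.296). ATP5MK had 9.44, 9.53 and 9.56 in deprived coculture, all below deprived monoculture and above complete medium (-0.24, SE 0.061, adjusted p = 0.00498).

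**Figure D3:**
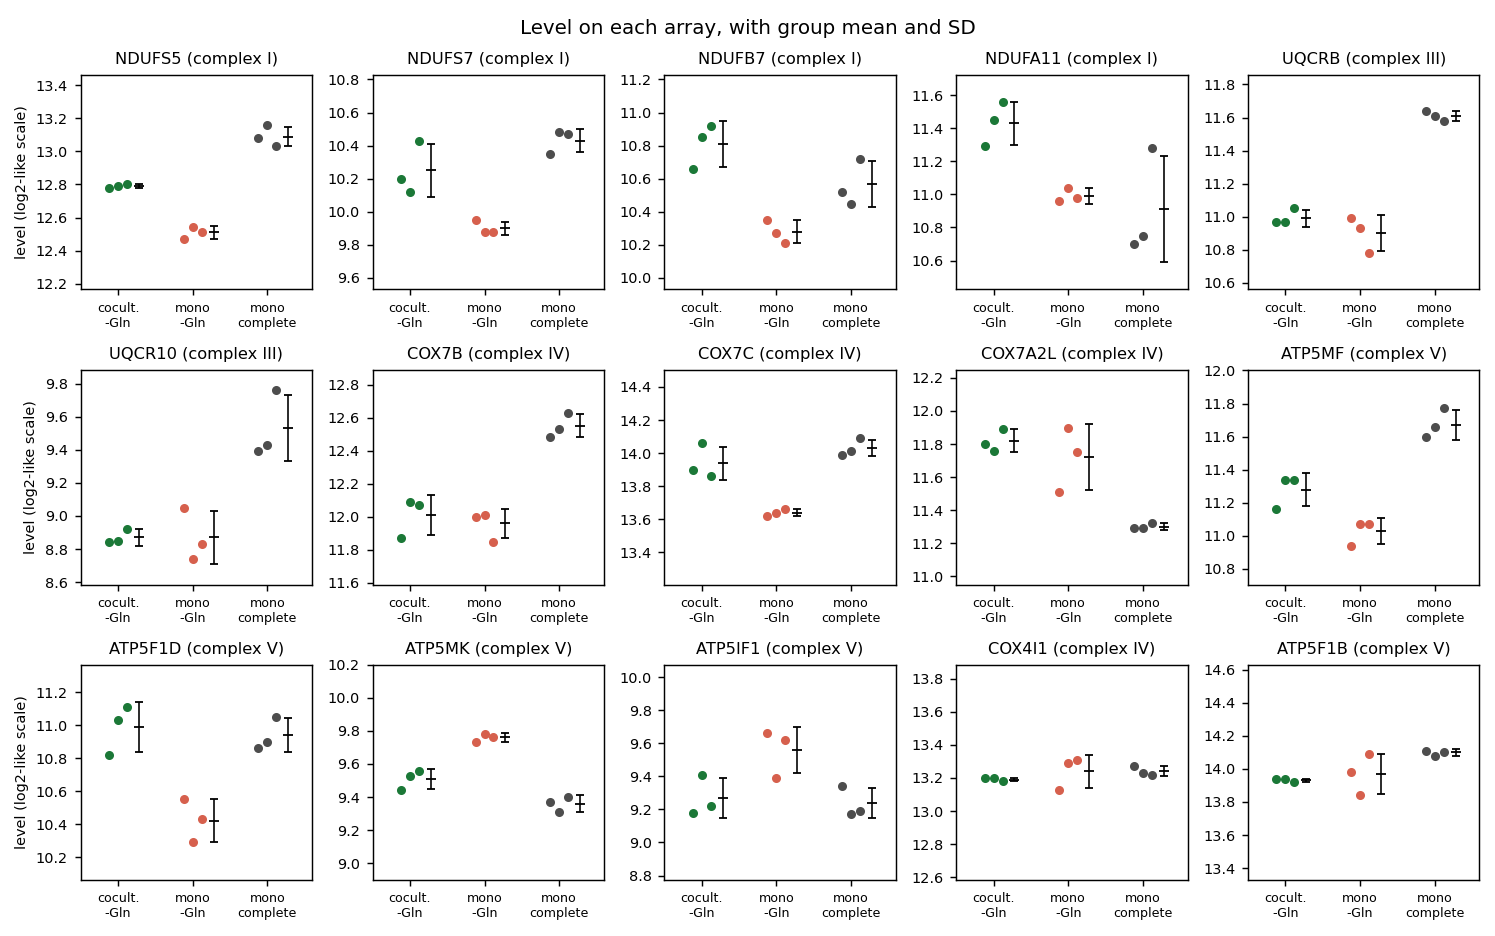
Level of 15 members on each array (points) with the group mean and SD (n = 3), for deprived coculture, deprived monoculture and complete medium; each axis spans 1.3 log2 units. NDUFS5 and ATP5MF in deprived coculture stand between the monocultures, UQCRB and COX7B in deprived coculture stand beside deprived monoculture, and COX4I1 lies near 13.2 in all groups.

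Where the higher members lie in the genome was looked at after their values were seen, and is a description with no test. Of 8 tested members on chromosome 19, 7 were higher in coculture: ATP5F1D, NDUFB7, NDUFA7, NDUFA13, NDUFA11, NDUFS7 and NDUFA3. The eighth was COX6B1 (-0.08, adjusted p = 0.322). Their median log2 difference was 0.36, and on the other chromosomes 9 of 61 members were higher, with a median of 0.03. The chromosome as a whole did not stand out in this way, as 68 of its 695 tested genes (9.78%) were higher and 111 lower, with a median of -0.02. Without coculture replicate 3 the count was 6 and the median 0.30. These members also moved together among the coculture arrays. There 7 of the 8 were lowest on replicate 1 and 7 were highest on replicate 3. Their median deviations from the group mean were -0.12, 0.01 and 0.12 on the 3 coculture arrays, against -0.02, 0.01 and 0.01 for the members on other chromosomes. In deprived monoculture the deviations of the chromosome 19 members were -0.01, 0.02 and -0.02, and in complete medium -0.06, -0.04 and 0.07. Promoter windows of members higher in coculture had a median GC content of 63.0% (13 genes), against 58.3% for the other tested members (46 genes). The ranges overlapped, at 49.0% to 74.0% and 40.3% to 74.7%. The 7 tested chromosome 19 members with a window, most of them among the higher members, had a median of 63.0%. The part of base composition or of single arrays in the difference was not tested.

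**Figure D4:**
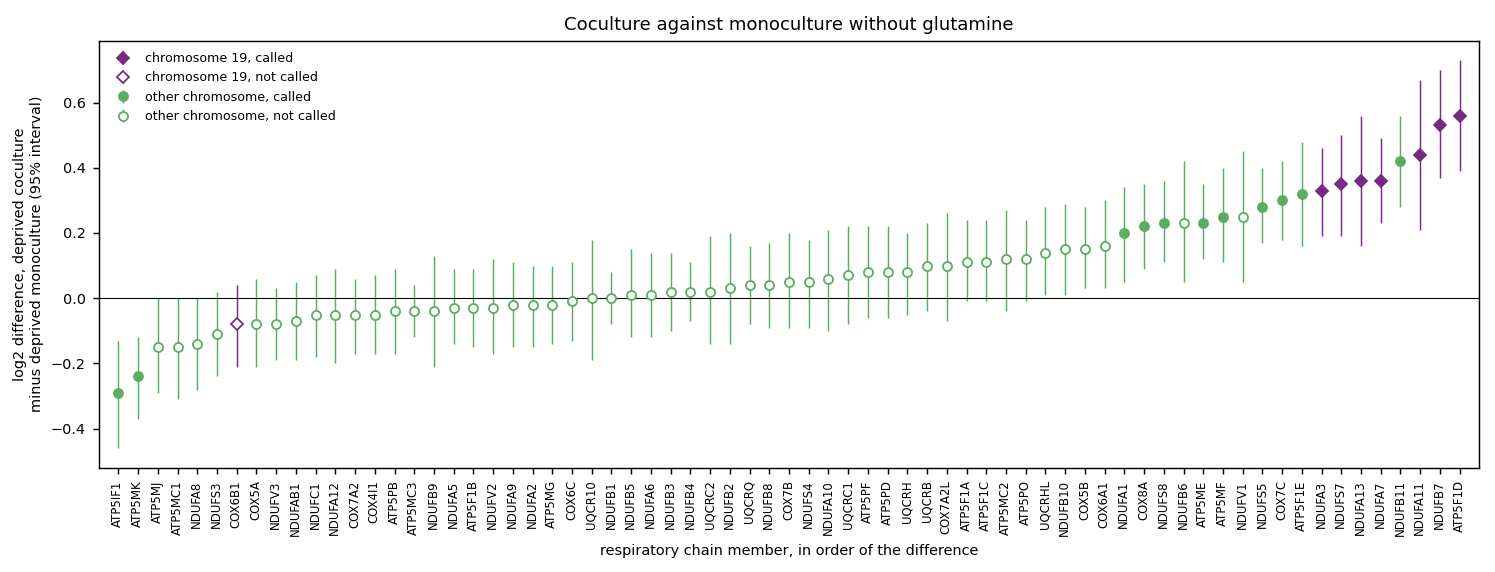
Log2 difference of each tested member between deprived coculture and deprived monoculture, with its 95% interval, in order of size. Diamonds mark members on chromosome 19 and circles the others, and filled marks are called. The 7 filled diamonds lie among the 8 members with the largest differences above 0, between 0.33 and 0.56, while NDUFB11 is the only circle among them.

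The third comparison set deprived coculture beside complete medium, which differ in both glutamine and fibroblasts. Relative to complete medium, 22 of 69 members were lower in deprived coculture and 10 higher, against 20.7% of all genes lower and 22.3% higher. In percentages the members came to 31.9% lower and 14.5% higher, with a median log2 difference of -0.09, against 0.008 over all genes. Lower members were 9 of 33 tested in complex I (27.3%), 3 of 7 in III (42.9%), 3 of 11 in IV (27.3%) and 7 of 18 in V (38.9%). The 3 coculture arrays had member medians of -0.119, -0.093 and -0.064 relative to the complete-medium means. The largest falls were those of UQCR10 (-0.66, SE 0.089, 1.57-fold lower), UQCRB (-0.62, SE 0.065) and COX7B (-0.54, SE 0.070). Next came NDUFA9 (-0.41), ATP5F1A and ATP5MF (-0.40 each) and NDUFV2 (-0.39). For UQCR10 and UQCRB a dimmer probe was not called (0.02 and 0.06, adjusted p = 0.856 and 0.377). NDUFS5 stayed lower than in complete medium by 0.30 on the log2 scale, and ATP5F1B was called lower (-0.16, adjusted p = 0.0254). The ATP5F1B call was lost without any of the coculture arrays (adjusted p = 0.0543, 0.0524 and 0.069 for replicates 1 to 3) and without complete-medium replicate 1 (0.0649) or 3 (0.0526).

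The 10 higher members were 7 of the 33 of complex I, COX7A2L of complex IV and ATP5MK and ATP5MJ of complex V. The complex I share was 21.2%, near the 22.3% of all genes. NDUFA11 was 0.52 higher (SE 0.11, 1.43-fold, adjusted p = 0.000538), NDUFA7 0.27 and NDUFS8 0.19 higher, and none of the 3 had been called in deprived monoculture. NDUFB7 was 0.25 higher (adjusted p = 0.0152) with overlapping groups, a call lost without coculture replicate 2 (0.23, adjusted p = 0.0607) or 3 (0.19, adjusted p = 0.0912) and without complete-medium replicate 1 (0.23, adjusted p = 0.0571) or 2 (0.19, adjusted p = 0.0908). COX7A2L was 0.52 higher (SE 0.078, 1.43-fold, adjusted p = 1.73e-05), with every coculture array above every complete-medium array, and NDUFB10 0.33 higher. ATP5MK (0.16, adjusted p = 0.0458) and ATP5MJ (0.18, adjusted p = 0.0465) were called, but neither was without complete-medium replicate 2 (0.13 and 0.11, adjusted p = 0.147 and 0.257), and neither was without complete-medium replicate 1, coculture replicate 2 or 3, or deprived monoculture replicate 2. NDUFV1 was called at 0.24 (adjusted p = 0.0456) and not without complete-medium replicate 1, its one low array (0.09, adjusted p = 0.387), nor without any of the coculture arrays or deprived monoculture replicate 2. Among all members 4 to 11 were called higher when 1 array was left out, with 4 without coculture replicate 3, 5 without coculture replicate 2 or complete-medium replicate 1, and 6 without complete-medium replicate 2. ATP5F1D (0.05), ATP5IF1 (0.03) and COX4I1 (-0.05) were not called. The dimmer probe of ATP5F1D was called higher (0.30, adjusted p = 0.000752), and so was the mean of its probes (0.18, adjusted p = 0.035). Of 17 members with 2 or more tested probes, 10 had probes both called and not called in this comparison.

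Genes that work with the complexes moved in both directions. Of complex II, which feeds electrons from succinate to ubiquinone, SDHA fell by 0.27 and SDHD by 0.34 in deprived monoculture, and SDHC was called higher (0.26, adjusted p = 0.00406), but at -0.02 (adjusted p = 0.834) when its probes were averaged. SDHA was lower still in deprived coculture, at 9.21, 9.24 and 9.24, against 9.38, 9.35 and 9.49 in deprived monoculture (-0.18, adjusted p = 0.0372). That call was lost without deprived monoculture replicate 3 (-0.14, adjusted p = 0.144), without any of the coculture arrays (-0.17 to -0.18, adjusted p = 0.0964, 0.0845 and 0.0782), with the mean of its probes (-0.09, adjusted p = 0.311), without the filter (adjusted p = 0.065) and with only the 6 arrays compared (adjusted p = 0.0505). CYC1, the cytochrome c1 subunit of complex III, which the symbol rule did not take in, fell by 0.34. CYCS, cytochrome c itself, had 8.05, 8.07 and 8.05 in deprived monoculture and 7.57, 7.59 and 7.69 in complete medium. All of its deprived arrays were the higher (0.44, 1.36-fold, adjusted p = 2.97e-07). COXFA4, known before as NDUFA4 and now placed in complex IV, fell by 0.33 and was 0.31 below complete medium in deprived coculture. COXFA4L2, its hypoxia-induced relative, had group means from 7.45 to 7.56, near the floor.

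Assembly factors, which build the complexes but are not part of them, went both ways. In deprived monoculture 13 of 41 tested fell (31.7%) and 15 rose (36.6%), near the 24.3% and 30.0% of all genes, with a median log2 difference of 0.01. UQCC2, a factor for the first steps of complex III, had 9.65, 9.56 and 9.53 in deprived monoculture, against 10.64, 10.60 and 10.75 in complete medium (-1.08, 2.11-fold lower, adjusted p = 2.14e-10), more than any subunit. It was 0.51 higher in deprived coculture than in deprived monoculture. The complex IV factors COA1 (-0.99), CMC2 (-0.69), COX16 (-0.68) and PET100 (-0.64) fell, while COX20 (0.78) and SURF1 (0.59) rose. Among complex I factors 6 of 13 fell and 2 rose. NDUFAF4, the one with the largest rise, had 9.55, 9.92 and 9.59 in deprived coculture, 10.15, 10.36 and 10.24 in deprived monoculture and 9.60, 9.67 and 9.73 in complete medium. The coculture and fed arrays overlapped, and both lay below every deprived monoculture array. In deprived coculture 8 of the 41 factors were lower (19.5%) and 7 higher (17.1%) than in deprived monoculture, near the 15.1% and 12.7% of all genes.

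Of 9 tested regulators of nuclear respiratory genes and mitochondrial transcription, 3 fell (33.3%) and 4 rose (44.4%) in deprived monoculture, against 24.3% and 30.0% of all genes. GABPB1 fell by 0.45 and its DNA-binding partner GABPA by 0.26, and TFB1M, a mitochondrial ribosomal RNA methyltransferase, by 0.61. ESRRA, a nuclear receptor that activates respiratory genes, had 9.32, 9.30 and 9.35 in deprived monoculture and 8.62, 8.42 and 8.68 in complete medium (0.75, 1.68-fold higher, adjusted p = 7.65e-09). TFB2M, which opens mitochondrial promoters, rose by 0.47, and POLRMT, the mitochondrial RNA polymerase, by 0.31. In deprived coculture ESRRA (-0.28) and TFB2M (-0.46) were lower than in deprived monoculture, and GABPA (0.20, adjusted p = 0.0227) and TFB1M (0.21, adjusted p = 0.0151) were higher. YY1 averaged 10.74 ± 0.10 in deprived monoculture and 10.75 ± 0.09 in complete medium (SD, n = 3 each). NRF1 and the coactivator PPARGC1A lay at the floor with group means from 7.41 to 7.45 and were not tested, and its relative PPARGC1B was near it.

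**Figure D5:**
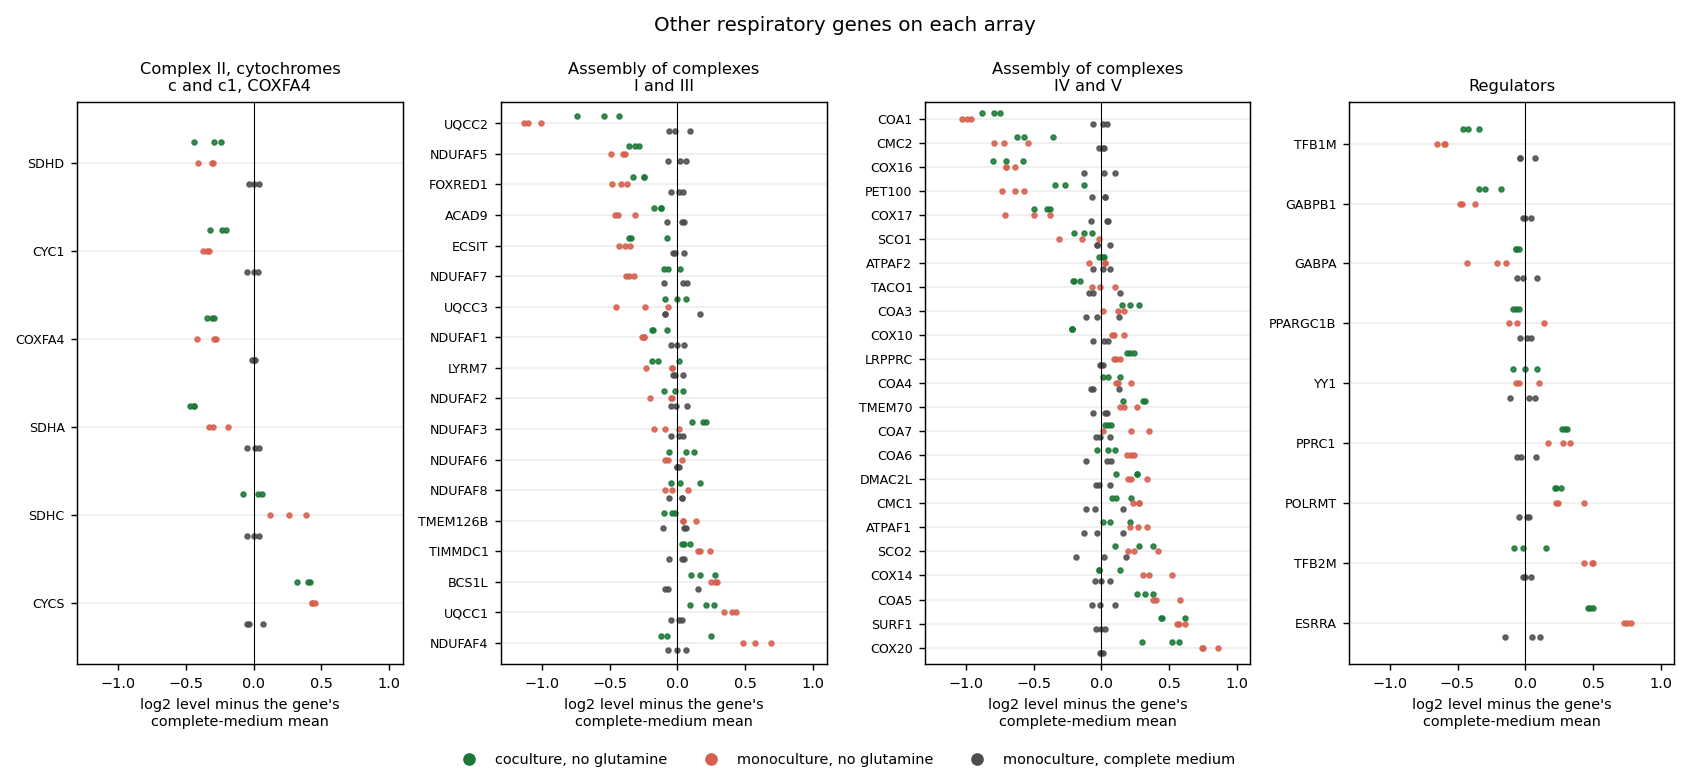
Level of complex II, cytochrome, assembly and regulator genes on each array, as the log2 level minus the gene's mean in complete medium (green, deprived coculture; red, deprived monoculture; grey, complete medium). UQCC2 and COA1 have the lowest deprived monoculture points and COX20 and ESRRA the highest, so that both directions are present in the assembly and regulator panels.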

How the data were processed

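Total RNA of 9 HeyA8 samples was labelled with biotin and hybridised to Illumina bead arrays. The authors deposited 1 log2-like value for each of 34476 probes on each array, made with lumi per the submitters' processing notes. The sources used here do not give its version, its background correction, or which of its log2 and variance-stabilising transforms was run; folds assume log2. Array medians lay between 7.4706 and 7.4731, and values were used as deposited. These medians are below the upper edge of the floor at 7.48, so they do not show whether brighter probes are aligned. Detection p and background signal were not used here. Precision is limited by there being 3 arrays a group.

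The platform annotation gave the symbols: 26366 probes had 1 symbol, 3 several and 8107 none. Members and lists were chosen with earlier results of these data known. A gene was represented by its brightest probe and kept where that probe's mean exceeded the median of all probe means, 7.46, which left 10862 genes. The model, 1 mean per group over 9 arrays, was fitted by limma 3.58.1 (lmFit, then eBayes with a trend; R 4.3.3; 6 residual and 13.3 prior degrees of freedom) and tested two-sided with Benjamini-Hochberg adjustment over all genes of a comparison. Intervals are 95% intervals of the fit; values of a gene's other probes come from a fit of all probes. Tables and figures used Python 3.11.15, pandas 2.3.3 and matplotlib 3.10.9.

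Named were, per complex, the 3 largest called falls and rises without glutamine, the 3 largest called differences in coculture, the 2 brightest members, a fixed list of carriers, isoforms and regulators, and members whose probes were called in opposite directions; other genes were named after their values were seen. Promoters came from RefSeq (GRCh38.p14). Alternatives were the filter, the probe rule, the normalization, the prior, the arrays in the fit, a block by replicate number, and each array left out.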

Additional observations from a re-analysis of the deposited data

How the results depend on the processing

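The counts of falling members held their size under the settings that kept all arrays. These were no filter or a stricter filter on dim probes, the mean of all probes, quantile normalization, a common median, no trend, a robust prior, only the 6 arrays compared and a replicate block. The cause of the exceptions below was not tested. For complex IV, quantile normalization gave a median of 0.02 in deprived monoculture against complete medium (reported -0.06) and 4 higher members in coculture against deprived monoculture (reported 2), as did no trend. Complex IV members higher in deprived coculture than in complete medium numbered 2 with the mean of probes, a common median, no trend or COXFA4 and COXFA4L2 counted in, and 3 with quantile normalization (reported 1). Complex V members higher in that comparison numbered 0 without the filter and with the replicate block (reported 2). With 1 array left out, the members called lower without glutamine numbered 3 to 5 in complex III, and those called higher 0 to 3 in complex I and 1 to 2 in complex IV. Higher in deprived coculture than in deprived monoculture were 1 to 3 of complex IV. Higher in deprived coculture than in complete medium were 4 to 11 of all members, 3 to 8 of complex I, 1 to 2 of complex IV and 0 to 2 of complex V. Of the named genes, only SDHC reversed, to -0.02 in deprived monoculture against complete medium with the mean of its probes. The labels do not say whether replicate numbers pair the samples. Deviations of same-numbered arrays correlated between -0.259 and 0.213, and those of different-numbered arrays between -0.239 and 0.346. The block is therefore an alternative only. With it the calls of ATP5F1E in deprived monoculture against complete medium (adjusted p = 0.0521), SDHA in coculture against deprived monoculture (0.0513) and NDUFV1, ATP5MJ and ATP5MK in deprived coculture against complete medium (0.0649, 0.0563 and 0.0539) were lost, and UQCRHL (0.043) and NDUFB6 (0.0348) were called in the first and the second comparison. The NDUFV1 call was also lost with the mean of probes (adjusted p = 0.0766), no filter (0.0591), no trend (0.0652), only the 6 arrays compared (0.0516) and a robust prior (0.0576). Close to the floor of the arrays differences are understated.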
